A study of Homo sapiens with 19 samples.

Results

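Splicing regulators of the SR and hnRNP families were followed by RNA-seq in A549, a long-used cell line from a human adenocarcinoma of the lung. The study sampled RNA by nanostraw electroporation (NEE), which pulls RNA out of living cells through nanometre-wide straws while short voltage pulses make the membrane leaky. The genes were taken by symbol: protein-coding genes named SRSF with a number or starting with HNRNP, together with TRA2A, TRA2B, DDX5, DDX17, U2AF1, U2AF2, SF3B1, PTBP1, SON and SRRM2. Of 49 such genes, 43 reached 1 CPM (counts scaled to library size) in at least 2 of the 19 libraries, among 62700 genes listed. The 6 below that level were HNRNPA1L2, HNRNPCL1, HNRNPCL2, HNRNPCL3, HNRNPCL4 and the readthrough gene HNRNPUL2-BSCL2. The samples were 3 technical replicates of RNA sampled by NEE from A549 monolayers, lysates of A549 spheroids and lysates of A549 monolayers. Each lysed culture form had 2 biological replicates before NEE, right after it, 2 h after it and 24 h after it, which gave 8 spheroid and 8 monolayer libraries. The labels give all cells as this 1 line, with no other genotype or agent. By cell type markers 1 monolayer library before NEE stood apart, as described below. Since the labels name no cultures kept without NEE, time in culture and handling cannot be told apart from NEE.

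SR proteins carry RNA recognition motifs and a tail rich in arginine and serine. They bind exonic enhancers and recruit the U1 snRNP and the U2AF dimer to splice sites. The hnRNPs coat nascent RNA and often act against them by covering splice sites or enhancers, and hnRNP F and H bind runs of G. Many SR and hnRNP genes hold a poison exon, whose inclusion sends their own mRNA to nonsense-mediated decay, and counts per gene do not separate such isoforms.

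The NEE-sampled libraries held 13626934 to 18512985 counts and the lysate libraries 16031034 to 24571083. The iron storage gene FTL took 9.68 to 13.3% of the counts in NEE-sampled RNA and 0.478 to 1.61% in lysates, so levels below are CPM on libraries scaled by TMM (trimmed mean of M values) over all 19. Replicate 1 of the monolayers before NEE stood apart. In it the summed level of 10 natural killer and T cell markers was 492 CPM, against 12.9 to 20.6 CPM in the other 7 monolayer libraries, and 8 epithelial markers summed to 8500 CPM, against 21200 to 35500 CPM. Its 4 endothelial markers summed to 15.7 CPM, against 0.702 to 2.75 CPM, and its 6 fibroblast markers to 30.6 CPM, against 5.15 to 8.83 CPM. In NEE-sampled RNA the sums of the lymphocyte and epithelial markers were 0.271 to 2.51 CPM and 27300 to 32600 CPM, and in spheroids 13.8 to 45.8 CPM and 21500 to 34300 CPM. None of the 8 epithelial markers was at 0 throughout a group. The splicing regulators in the library that stood apart had a median log2 ratio of 0.01 to the mean of the other 7 monolayer libraries, but 12 lay above and 8 below all 7. The part of this library in the results was not tested beyond leaving it out.

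To show the DNA in front of some of the genes that the results turn on, the 250 bases before the RefSeq start (GRCh38.p14) are given for 3 genes that were lower in spheroids than in monolayers and for HNRNPH2, which was higher. Capitals mark matches to 4 motifs, each searched on both strands. The E-box was CACGTG, which reads the same on both. The CCAAT box was CCAAT, or ATTGG on the other strand. The GC box was searched as GGGCGG and, for the other strand, CCGCCC. The TATA box was searched as TATAAA and, for the other strand, TTTATA. No marked matches overlap. The windows are chr6:36594112-36594361 on the plus strand for SRSF3, chr17:58007247-58007496 on the minus strand for SRSF1, chr3:185938015-185938264 on the minus strand for TRA2B and chrX:101407972-101408221 on the plus strand for HNRNPH2, each printed along the gene's own strand. The GENCODE 29 annotation places the gene starts elsewhere. By it the windows of SRSF1, SRSF3 and TRA2B reach into the gene.
SRSF3: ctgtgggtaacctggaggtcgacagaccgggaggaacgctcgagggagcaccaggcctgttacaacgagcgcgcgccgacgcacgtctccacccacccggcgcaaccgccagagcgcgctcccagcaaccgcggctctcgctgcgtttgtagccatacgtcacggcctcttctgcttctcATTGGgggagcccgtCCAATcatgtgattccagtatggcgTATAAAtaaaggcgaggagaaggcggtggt
SRSF1: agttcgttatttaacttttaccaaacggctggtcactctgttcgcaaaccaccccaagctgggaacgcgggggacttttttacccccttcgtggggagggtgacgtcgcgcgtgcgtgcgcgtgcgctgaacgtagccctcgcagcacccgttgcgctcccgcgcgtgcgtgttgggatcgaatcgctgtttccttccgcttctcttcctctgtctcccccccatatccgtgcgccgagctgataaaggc
TRA2B: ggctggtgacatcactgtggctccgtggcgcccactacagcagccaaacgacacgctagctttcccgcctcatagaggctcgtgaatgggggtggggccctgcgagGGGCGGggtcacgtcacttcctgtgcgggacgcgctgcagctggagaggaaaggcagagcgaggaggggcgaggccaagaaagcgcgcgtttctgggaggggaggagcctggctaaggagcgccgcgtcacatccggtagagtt
HNRNPH2: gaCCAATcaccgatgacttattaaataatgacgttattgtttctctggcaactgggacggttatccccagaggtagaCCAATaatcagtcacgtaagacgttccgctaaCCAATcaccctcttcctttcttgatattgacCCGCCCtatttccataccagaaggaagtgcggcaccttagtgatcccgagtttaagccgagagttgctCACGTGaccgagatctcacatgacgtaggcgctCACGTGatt
SRSF3 held both orientations of the CCAAT box and a TATA box close to the start, SRSF1 held none of these motifs, TRA2B held 1 GC box, and HNRNPH2 held 3 CCAAT boxes, 2 E-boxes and 1 GC box. A window was given for 39 of the 43 genes, of which 8 held an E-box, 21 a CCAAT box, 25 a GC box and 7 a TATA box. Of the 27305 genes with such a window, 7.73% held an E-box, 37.0% a CCAAT box, 46.2% a GC box and 13.0% a TATA box. Among 15 genes that were lower in spheroids and had a window, 3 held an E-box, 7 a CCAAT box, 10 a GC box and 4 a TATA box. A match is a description of the letters, not of a bound site.

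On GRCh38 (GENCODE 29), SRSF3 (ENSG00000112081) spans chr6:36594353-36605600, SRSF1 (ENSG00000136450) chr17:58003360-58007346, DDX5 (ENSG00000108654) chr17:64499616-64508199 and HNRNPK (ENSG00000165119) chr9:83968083-83980616. Levels were compared between genes per length, in TPM (counts per length, scaled to a fixed total) over the union of each gene's exons. For several genes this union is far longer than the longest protein-coding transcript. It is 7388 against 2554 bases for DDX5, 5114 against 2942 for HNRNPK, 3744 against 1201 for SRSF9 and 11112 against 1675 for U2AF1. Per longest transcript DDX5 would stand above HNRNPK, since its mean lysate CPM was higher (2330 and 1940) and that transcript is shorter. Ranks below hold for the union only. In the 16 lysates the highest was HNRNPK, whose KH domains bind runs of C, at 1610 ± 229 TPM (mean ± SD over the 16 libraries). DDX5, a DEAD-box RNA helicase, followed at 1340 ± 222 TPM, then HNRNPA1, a repressor of exon inclusion, at 991 ± 96.5 TPM, HNRNPF at 934 ± 151 TPM and HNRNPC, which binds runs of U, at 636 ± 132 TPM. The neighbours HNRNPA1 and HNRNPF lay within their spread of each other, as did HNRNPC and HNRNPH2, which stood at 635 ± 116 TPM. The lowest were SRSF9 at 12.9 ± 3.48 TPM, HNRNPL, which binds CA repeats, at 11.4 ± 3.94 TPM, HNRNPUL2 at 1.73 ± 0.792 TPM, U2AF1 at 1.25 ± 1.59 TPM and SRSF12, a relative of SRSF10, at 0.465 ± 0.374 TPM. SRSF9 and HNRNPL did not differ beyond their spread, nor did HNRNPUL2 and U2AF1. U2AF1, which reads the AG at the 3′ splice site, has a near-identical annotated copy, and HNRNPA1 has many processed copies, of which HNRNPA1L3 is counted here as protein-coding, so how reads were divided among copies makes their levels uncertain.

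The genes differed in how steady they were. By the SD of log2 group means over the 8 lysate groups, the most variable were U2AF1 at 1.02, HNRNPA0 at 0.76, HNRNPAB at 0.57, SRSF1 at 0.53 and HNRNPLL at 0.52. Within groups the SD on the log2 scale was 1.10 for HNRNPA0, 1.04 for U2AF1 and 0.90 for PTBP1, the polypyrimidine tract-binding protein. SRSF3 varied least between replicates, with a within-group SD of 0.07 beside an SD of group means of 0.33. For U2AF1, replicate 2 of the monolayers before NEE was at 16.5 CPM and replicate 1 at 2.23 CPM.

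As a share of all counts the 43 genes took 0.691 to 0.78% in NEE-sampled RNA, 1.18 to 1.33% in spheroid lysates and 1.27 to 1.56% in monolayer lysates. The SR proteins alone took 0.136 to 0.159% in NEE-sampled RNA, 0.125 to 0.161% in spheroids and 0.189 to 0.22% in monolayers. The helicases DDX5 and DDX17 with U2AF1, U2AF2 and SF3B1 took 0.0344 to 0.0431% in NEE-sampled RNA, 0.24 to 0.356% in spheroids and 0.255 to 0.389% in monolayers. The FTL share was higher in NEE-sampled RNA than in lysates, and the share of the 43 genes was lower. Within NEE-sampled RNA the shares did not follow each other. In replicates 1, 2 and 3 FTL took 13.308, 9.682 and 10.043% of counts, and the 43 genes 0.7006, 0.7797 and 0.691%. The lowest share of the 43 genes was thus not in the library with the most FTL. The part of FTL in the raw shares was not tested.

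**Figure D1:**
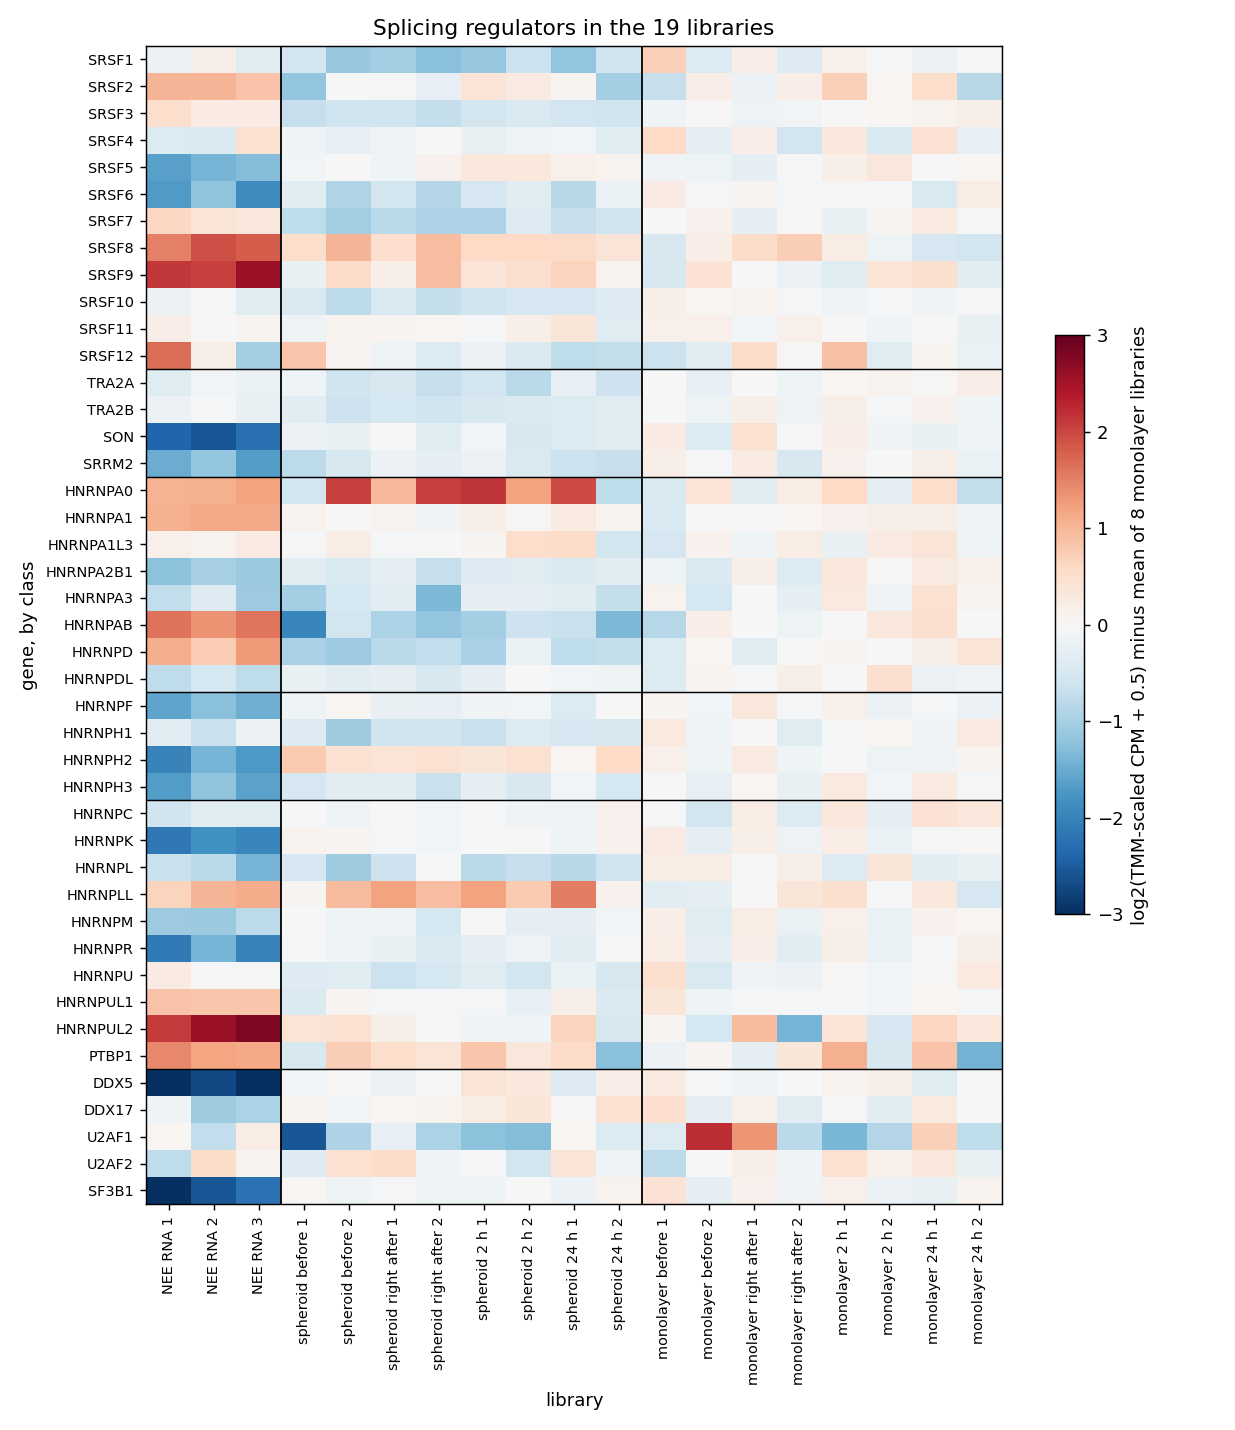
Level of each of the 43 genes (rows, by class from SR proteins at the top to helicases and 3′ splice site factors at the bottom) in each of the 19 libraries (columns), as log2(TMM-scaled CPM + 0.5) minus the mean of the 8 monolayer libraries. DDX5, SF3B1 and SON are blue in all 3 NEE-sampled libraries and SRSF9 is red, while SRSF1, SRSF3 and SRSF7 are blue in the 8 spheroid libraries.

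Spheroids were set against monolayers over the 4 times to see how the form of culture bears on these genes. Of the 12 SR proteins, 5 fell in spheroids (SRSF1, SRSF3, SRSF6, SRSF7 and SRSF10), 1 rose (SRSF8) and 6 did not pass the test. Of the 43 genes, 20 passed the test (46.5%; edgeR quasi-likelihood test, Benjamini-Hochberg adjusted p under 0.05 over 17822 genes), 16 of them lower and 4 higher. Over all genes tested 19.9% passed, with 9.84% lower and 10% higher. The median log2 fold change was −0.22 over the 43 genes and −0.02 over all genes. With 1 library left out the median of the 43 ran from −0.25 to −0.13, the weakest values being −0.13 without replicate 1 of the monolayers right after NEE and −0.14 without replicate 1 before NEE or at 2 h. In bulk samples a smaller share of cells that express a gene and less RNA of it per cell cannot be told apart.

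SRSF3, which also serves in mRNA export and poly(A) site choice, ranged from 248 CPM over a median of 271 to 296 CPM in the 8 spheroid libraries, against 366, 416 and 460 CPM in the 8 monolayer libraries. No spheroid library reached the lowest monolayer library. The means were 270 ± 14.4 CPM in spheroids and 410 ± 33.4 CPM in monolayers (SD, n = 8 each), and the edgeR fit put the log2 fold change at −0.60 ± 0.09 (SE, adjusted p = 0.000364). SRSF7, an SR protein with a zinc knuckle that also acts in export, had a lowest, median and highest level of 111, 132 and 174 CPM in spheroids, against 190, 230 and 277 CPM in monolayers. The log2 fold change of SRSF7 was −0.77 ± 0.12 (edgeR adjusted p = 0.000605), again without overlap.

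SRSF1, the best-studied SR protein and a proto-oncogene, had 66.7, 75.6 and 108 CPM as lowest, median and highest values in spheroids, against 120, 155 and 263 CPM in monolayers. The log2 fold change was −0.96 ± 0.18 (edgeR adjusted p = 0.00232), and the highest value came from replicate 1 of the monolayers before NEE. SRSF10, a splicing repressor when dephosphorylated, had 128, 156 and 168 CPM in spheroids, against 205, 216 and 248 CPM in monolayers, with a log2 fold change of −0.54 ± 0.10 (edgeR adjusted p = 0.00163). The 2 groups did not overlap for either gene. SRSF6 fell by 0.56 ± 0.14 on the log2 scale (edgeR adjusted p = 0.0136), with ranges that overlapped. SRSF8, which arose as a retrocopy of SRSF2, had 12.7, 14.6 and 19.9 CPM in spheroids, against 6.43, 9.75 and 16.2 CPM in monolayers, a log2 fold change of 0.68 ± 0.18 (edgeR adjusted p = 0.0167). With no filter on low counts SRSF8 did not pass (edgeR adjusted p = 0.062). SRSF2, SRSF4, SRSF5, SRSF9, SRSF11 and SRSF12 did not pass, with log2 fold changes of −0.23, −0.22, 0.11, 0.40, 0.04 and −0.64.

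Of the TRA2 and SR-related proteins, TRA2A, TRA2B and SRRM2 fell. TRA2B, which binds GAA-rich exonic enhancers, had 123, 137 and 152 CPM as lowest, median and highest values in spheroids, against 170, 185 and 214 CPM in monolayers. These did not overlap, and the log2 fold change was −0.47 ± 0.10 (edgeR adjusted p = 0.00553). Its paralog TRA2A had a log2 fold change of −0.51 ± 0.12 (edgeR adjusted p = 0.00976), and SRRM2, a scaffold of nuclear speckles, one of −0.46 ± 0.13 (edgeR adjusted p = 0.0226). SON, the other speckle scaffold, was at −0.27 ± 0.13 and did not pass (edgeR adjusted p = 0.173).

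**Figure D2:**
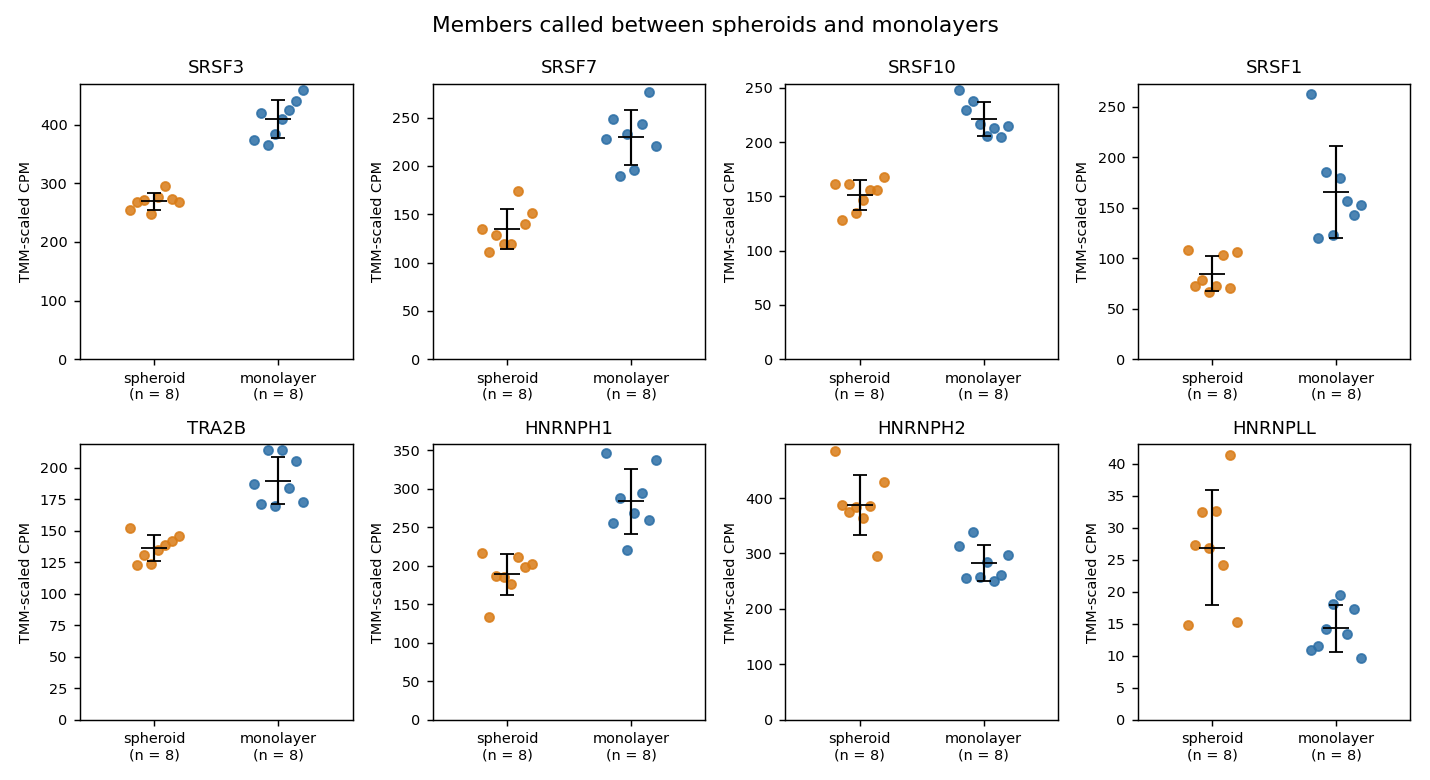
TMM-scaled CPM of 8 genes in the 8 spheroid and 8 monolayer libraries, 1 point per library, with mean and SD in black and axes from 0. For SRSF3, SRSF7, SRSF10, SRSF1, TRA2B and HNRNPH1 every spheroid point lies below every monolayer point, while HNRNPH2 and HNRNPLL are higher in spheroids with some overlap.

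The hnRNPs moved in both directions. In the A/B and D class 4 of 8 fell and 1 rose. HNRNPD, known as AUF1 for its part in decay of mRNAs with AU-rich elements, had 14, 17.4 and 26.6 CPM in spheroids, against 22.8, 31.3 and 40.3 CPM in monolayers, a log2 fold change of −0.79 ± 0.16 (edgeR adjusted p = 0.00296). HNRNPAB had 4.62, 9.59 and 13.1 CPM in spheroids, against 10.5, 19.5 and 27.2 CPM in monolayers, a log2 fold change of −1.04 ± 0.25 (edgeR adjusted p = 0.00931). Both overlapped only at the edges of their ranges. HNRNPA2B1 and HNRNPA3, which bind exonic silencers as HNRNPA1 does, had log2 fold changes of −0.41 and −0.60 (edgeR adjusted p = 0.0207 and 0.0389). HNRNPA1 itself, at 1230 ± 92.7 CPM in spheroids and 1160 ± 154 CPM in monolayers (SD, n = 8 each), did not pass (edgeR adjusted p = 0.597), nor did HNRNPA1L3 and HNRNPDL, at 0.12 and −0.22 on the log2 scale.

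HNRNPA0, which binds AU-rich elements, passed narrowly in the other direction, with a log2 fold change of 1.40 ± 0.46 (edgeR adjusted p = 0.0498). It was at 16.2 and 18.8 CPM in replicate 2 of the spheroids at 24 h and replicate 1 of those before NEE, and at 54.7 to 124 CPM in the other 6 spheroid libraries, against 16.8 to 42.4 CPM in monolayers. With the replicate number as a block its adjusted p was 0.0581, and it kept the call in 2 of the 16 fits that left out a library, those without either low spheroid library.

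HNRNPH1 and HNRNPH2, close paralogs, differed in sign. HNRNPH1 had 133, 192 and 216 CPM as lowest, median and highest values in spheroids, against 220, 278 and 347 CPM in monolayers, with no overlap and a log2 fold change of −0.58 ± 0.13 (edgeR adjusted p = 0.00657). HNRNPH2 had 295, 385 and 485 CPM in spheroids, against 251, 273 and 339 CPM in monolayers, a log2 fold change of 0.46 ± 0.11 (edgeR adjusted p = 0.0129). The difference between the paralogs was not tested. HNRNPH3 was lower at −0.39 ± 0.12 (edgeR adjusted p = 0.0368, but 0.1 with no filter on low counts), and HNRNPF, at −0.14 ± 0.10, did not pass.

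Among the other hnRNPs, HNRNPL and its paralog HNRNPLL, known for CD45 splicing in lymphocytes, also had opposite signs. HNRNPLL had 14.8, 27.0 and 41.4 CPM in spheroids, against 9.58, 13.8 and 19.5 CPM in monolayers, a log2 fold change of 0.92 ± 0.23 (edgeR adjusted p = 0.0135). In the library that stood apart HNRNPLL was at 10.9 CPM, inside the range of the other monolayers. HNRNPL had a log2 fold change of −0.65 ± 0.17 (edgeR adjusted p = 0.0189), and HNRNPU, the scaffold attachment factor, one of −0.46 ± 0.13 (edgeR adjusted p = 0.026). HNRNPK, at 1940 ± 125 CPM in spheroids and 1940 ± 266 CPM in monolayers (SD, n = 8 each), had a log2 fold change of 0.00 ± 0.11. HNRNPC, HNRNPM, HNRNPR, HNRNPUL1, HNRNPUL2 and PTBP1 did not pass either, with log2 fold changes between −0.21 for HNRNPR and 0.16 for PTBP1. None of the 5 helicases and 3′ splice site factors passed, with DDX5 at 0.04 ± 0.11 and SF3B1, the branch point subunit of the U2 snRNP, at −0.06 ± 0.12.

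The libraries did not overlap for 6 of the 43 genes, all lower in spheroids (SRSF1, SRSF3, SRSF7, SRSF10, TRA2B and HNRNPH1), and for 3.36% of all genes tested in that direction and 2.97% in the other. All 20 called genes had the same sign in both batches of the labels, with 4 libraries of each culture in a batch. The calls came from these same libraries, so the shared sign is a description and not separate support. In the batches SRSF3 was at −0.56 and −0.64, SRSF7 at −0.75 and −0.79 and SRSF1 at −1.21 and −0.68 on the log2 scale. The count of called genes was 17 without replicate 1 of the monolayers before NEE, and it was 13 without replicate 1 of the monolayers right after NEE and also without replicate 2 of the spheroids right after NEE. SRSF1, SRSF3, SRSF6, SRSF7, SRSF10, TRA2A, TRA2B, HNRNPAB, HNRNPD, HNRNPH1, HNRNPH2 and HNRNPLL were called in every fit that left out a library. The other 8 were called in 2 to 12 of those 16 fits. These were HNRNPA0 in 2, HNRNPA3 in 4, HNRNPH3 in 5, HNRNPU in 7, HNRNPA2B1 in 9, SRRM2 in 10, and HNRNPL and SRSF8 in 12.

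Before NEE alone, with 2 libraries of each culture, none of the 43 genes passed by edgeR, while 12 had an unadjusted p under 0.05 and DESeq2 called 4. Over all genes 1.3% passed by edgeR, 0.701% higher and 0.595% lower, and 16.4% had an unadjusted p under 0.05. These counts rest on single libraries: of 17822 genes 231 passed, but 30 without replicate 1 of the monolayers, the library that stood apart, and 1193 without replicate 2, which leaves that library alone. Of the 43 genes, 0 and 2 passed in those fits. Without 1 spheroid library before NEE, 39 or 73 of all genes passed. SRSF7 was at 111 and 135 CPM in spheroids before NEE, against 228 and 249 CPM in monolayers before NEE, a log2 fold change of −0.94 ± 0.24 (edgeR adjusted p = 0.0629). SRSF10 was at −0.71 ± 0.19 (edgeR adjusted p = 0.0841) and SRSF3 at −0.59 ± 0.17 (edgeR adjusted p = 0.0977). The signs of these 3 genes were those found over the 4 times, of which these libraries are a part.

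Other genes of the pathway were counted from lists. Of 40 genes of the core spliceosome, 14 fell and 0 rose in spheroids, among them PRPF4, a U4/U6 snRNP protein, at −0.94 ± 0.12 (edgeR adjusted p = 0.000153), and the helicase DHX15 at −0.77 ± 0.13 (edgeR adjusted p = 0.00104). Of 34 other splicing regulators tested, 10 fell and 0 rose, with RBM25 at −0.91 ± 0.15 (edgeR adjusted p = 0.000748). Of 14 factors of nonsense-mediated decay, UPF2 and SMG1 fell and none rose. Of 9 kinases that act on SR proteins, SRPK1 fell by 0.54 ± 0.14 on the log2 scale (edgeR adjusted p = 0.0172) and DYRK1B rose by 1.37 ± 0.16 (edgeR adjusted p = 8.31e-05). Over all genes tested 9.84% fell and 10% rose. The medians of these lists were −0.35, −0.35, −0.32 and −0.21, against −0.02 over all genes.

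**Figure D3:**
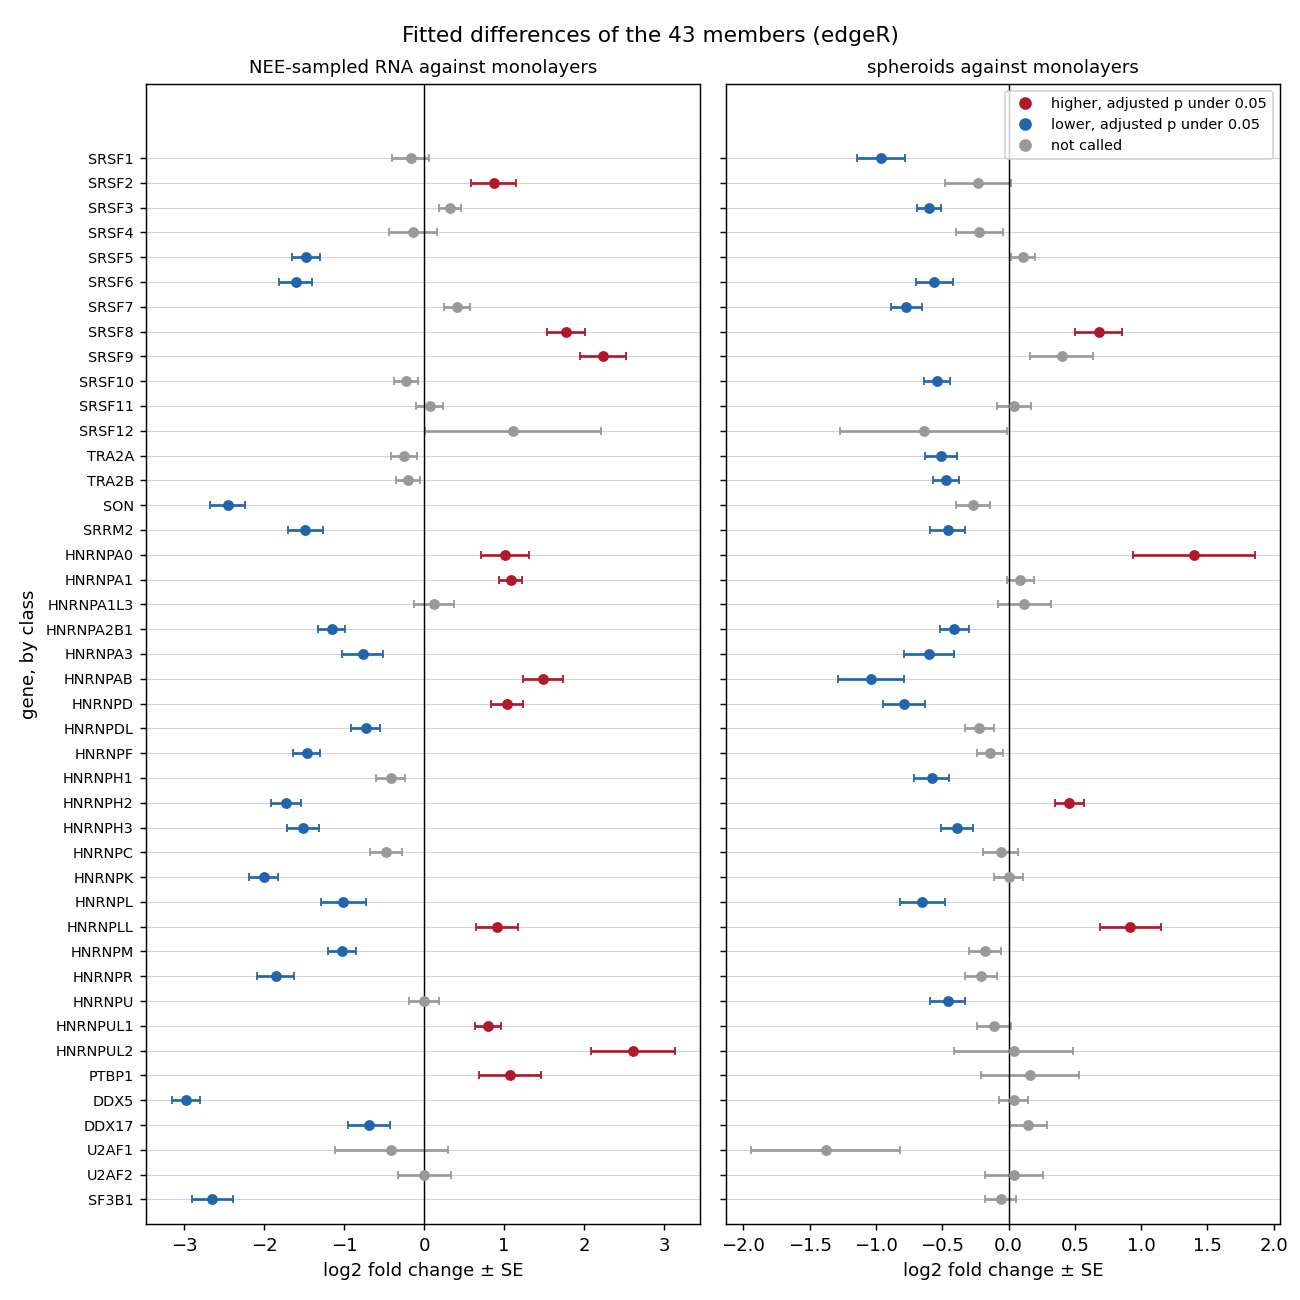
Fitted log2 fold change with its SE for each of the 43 genes, by class, in NEE-sampled RNA against monolayers (left) and in spheroids against monolayers (right), coloured by the edgeR call. The left panel spans −2.98 for DDX5 to 2.61 for HNRNPUL2, and most called genes in the right panel lie between −1.04 and −0.39. The 2 panels share the monolayer libraries.

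NEE-sampled RNA was set against the 8 monolayer lysates to see how these genes appear in RNA drawn from living cells. The largest falls were those of DDX5, SF3B1, SON and HNRNPK, and the largest rises those of HNRNPUL2, SRSF9, SRSF8 and HNRNPAB. Of the 43 genes 28 passed (65.1%; edgeR, 17067 genes tested), 11 higher and 17 lower, against 48.6% of all genes, with 22.5% higher and 26.0% lower. The median log2 fold change was −0.23 over the 43 genes and −0.20 over all genes. The 3 NEE-sampled libraries are technical replicates, so p-values are too small as a measure of the spread between cultures. The way of sampling, the clean-up kit and the separate arm of the study cannot be told apart.

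DDX5 was at 280, 350 and 258 CPM in the 3 NEE-sampled libraries, against 1770, 2270 and 2740 CPM as lowest, median and highest values in monolayers. The groups lay far apart, with an edgeR log2 fold change of −2.98 ± 0.18 (SE; adjusted p = 7.48e-07). SF3B1 was at 53.7, 81.1 and 105 CPM in NEE-sampled RNA, with a mean of 80.1 ± 25.9 CPM (SD, n = 3), against 493 ± 86.7 CPM in monolayers (SD, n = 8). Its log2 fold change was −2.65 ± 0.26 (edgeR adjusted p = 8.77e-06). DDX17, the paralog of DDX5, was at 64.1 ± 25.2 CPM in NEE-sampled RNA (SD, n = 3) and 101 ± 22.1 CPM in monolayers (SD, n = 8), a log2 fold change of −0.69 ± 0.26 (edgeR adjusted p = 0.0439) with overlapping libraries. U2AF1 and U2AF2 did not pass, at −0.41 and 0.00.

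SON was at 27.8, 24.1 and 30.6 CPM in NEE-sampled RNA, against 148 ± 28.9 CPM in monolayers (SD, n = 8), a log2 fold change of −2.46 ± 0.22 (edgeR adjusted p = 5.58e-06). SRRM2 was also lower, at −1.49 ± 0.22 (edgeR adjusted p = 0.000189), while TRA2A and TRA2B did not pass, at −0.25 and −0.20. Both speckle scaffolds thus fell and both TRA2 proteins missed the threshold, a difference that was not itself tested.

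HNRNPK was at 437, 546 and 496 CPM in NEE-sampled RNA, against 1580, 1920 and 2270 CPM as lowest, median and highest values in monolayers, a log2 fold change of −2.01 ± 0.18 (edgeR adjusted p = 6.08e-06). All 3 values lay below every monolayer library. HNRNPA1 was at 2430, 2560 and 2540 CPM in NEE-sampled RNA, against 833, 1180 and 1310 CPM as lowest, median and highest values in monolayers, and rose by 1.08 ± 0.14 on the log2 scale (edgeR adjusted p = 6.42e-05). Within its class HNRNPAB, HNRNPD and HNRNPA0 rose too, by 1.49, 1.03 and 1.01, and HNRNPA2B1, HNRNPA3 and HNRNPDL fell by 1.16, 0.77 and 0.73.

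In the F/H class 3 of 4 fell. HNRNPH2 was at 70.1, 106 and 84.2 CPM in NEE-sampled RNA, against 283 ± 32.0 CPM in monolayers (SD, n = 8), a log2 fold change of −1.73 ± 0.19 (edgeR adjusted p = 2.15e-05). HNRNPF was at −1.47 ± 0.17 (edgeR adjusted p = 2.31e-05) and HNRNPH3 at −1.52 ± 0.20 (edgeR adjusted p = 6.21e-05), while HNRNPH1 was at −0.42 ± 0.18 and missed the threshold (edgeR adjusted p = 0.0668). Of the remaining hnRNPs, HNRNPR, HNRNPM and HNRNPL were lower, at −1.86, −1.03 and −1.01. HNRNPUL2, HNRNPUL1, HNRNPLL and PTBP1 were higher, at 2.61, 0.80, 0.91 and 1.07, while HNRNPU stood at 0.00 ± 0.19 and HNRNPC at −0.48 ± 0.20 (edgeR adjusted p = 0.0586). HNRNPUL2 was at 9.79, 13.9 and 16.4 CPM in NEE-sampled RNA and at 0.424 to 4.14 CPM in monolayers. Its fold change thus rests on low levels in monolayers.

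Of the SR proteins, 3 rose, 2 fell and 7 did not pass. SRSF9 was at 43.1, 41.0 and 59.6 CPM in NEE-sampled RNA, against 9.90 ± 2.87 CPM in monolayers (SD, n = 8), a log2 fold change of 2.24 ± 0.29 (edgeR adjusted p = 5.93e-05). SRSF8 was at 28.1, 37.8 and 34.8 CPM, against 10.1 ± 3.69 CPM in monolayers (SD, n = 8), with a log2 fold change of 1.77 ± 0.24 (edgeR adjusted p = 9.05e-05). SRSF2 was also higher, at 0.87 ± 0.28 (edgeR adjusted p = 0.0215). SRSF5 and SRSF6 were lower, with log2 fold changes of −1.48 ± 0.17 (edgeR adjusted p = 2.36e-05) and −1.61 ± 0.21 (edgeR adjusted p = 7.58e-05). SRSF7 was at 352, 297 and 284 CPM in NEE-sampled RNA, above all monolayer libraries, but at 0.41 ± 0.16 it missed the threshold (edgeR adjusted p = 0.0506), as did SRSF3 at 0.32 ± 0.14 (edgeR adjusted p = 0.0752). SRSF1, SRSF4, SRSF10 and SRSF11 lay between −0.23 and 0.07, and SRSF12, with few reads, was at 1.11 ± 1.10.

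**Figure D4:**
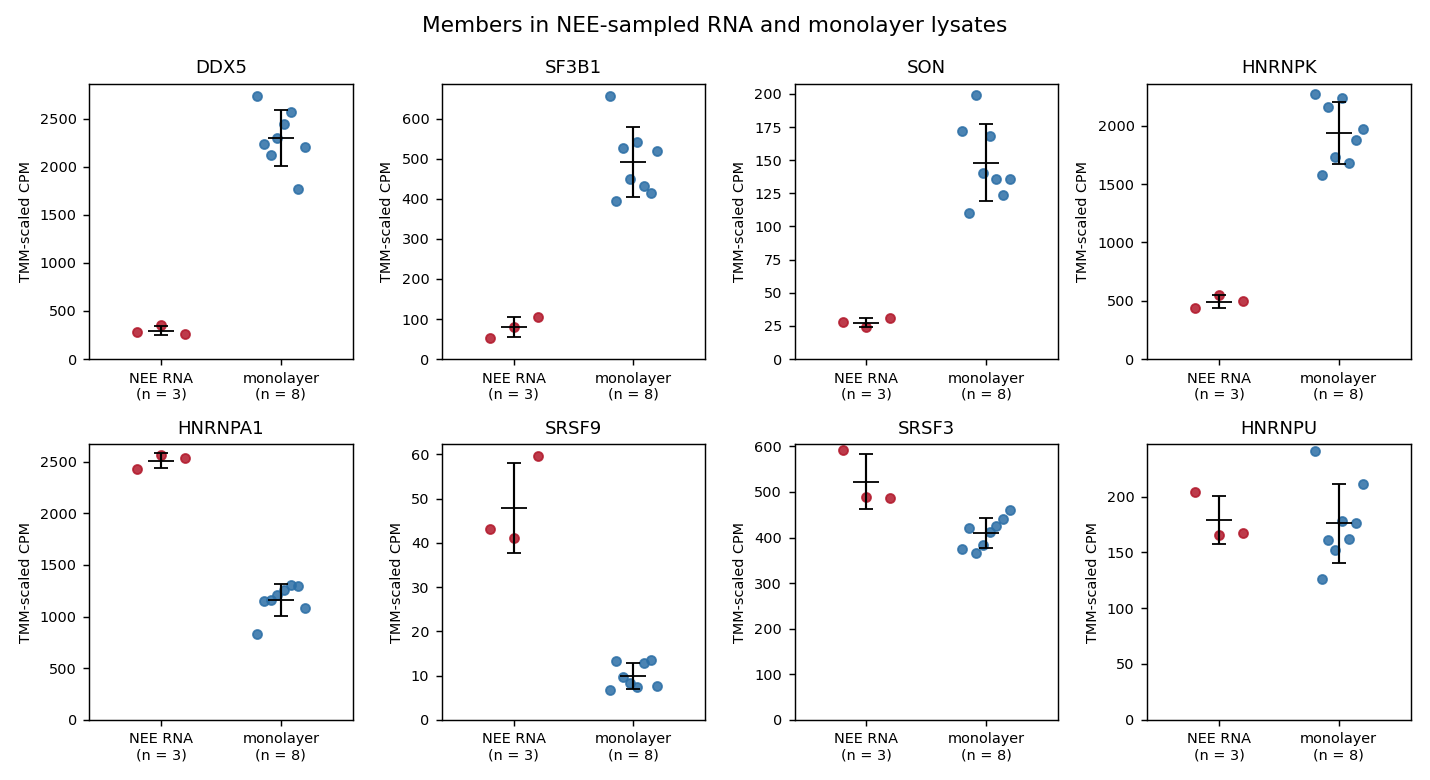
TMM-scaled CPM of 8 genes in the 3 NEE-sampled and 8 monolayer lysate libraries, 1 point per library, with mean and SD in black and axes from 0. DDX5, SF3B1, SON and HNRNPK are lower in NEE-sampled RNA and HNRNPA1 and SRSF9 higher, without overlap. SRSF3 lies just above the monolayers and HNRNPU among them.

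Of the 43 genes, 13 lay above and 15 below all monolayer libraries, as did 21.3% and 23.2% of all genes tested. Of the 28 calls, 22 held with the replicate number as a block, where PTBP1, DDX17, HNRNPL, HNRNPLL, HNRNPA0 and HNRNPA3 had adjusted p of 0.0518, 0.0511, 0.0573, 0.0516, 0.0536 and 0.135. This block joins NEE-sampled replicates 1 and 2 to the monolayer replicates of the same number and leaves replicate 3 alone. What technical replicates share with cultures of the same number is not stated. The blocked fit therefore cannot show whether a batch bears on the calls. With the NEE-sampled libraries summed into 1, 19 genes were called, and HNRNPM, HNRNPDL and SRSF2 were lost besides those 6. Leaving out 1 library at a time gave 24 to 32 calls, and 26 where replicate 1 of the monolayers before NEE was out. Over those 11 fits PTBP1 was called in 5, DDX17 in 4, HNRNPA3 in 6, SRSF2 in 9 and HNRNPL in 10, and the other 23 in all. Against the monolayers before NEE alone, 23 genes passed, 9 higher and 14 lower, beside 38.0% of all genes, with 15.6% higher and 22.5% lower.

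The GC content of the longest protein-coding transcript of each gene had a Pearson r of 0.18 and a Spearman rho of 0.13 with the log2 fold change across the 43 genes, and its log2 length had −0.19 and −0.08. Across 13441 genes these were 0.24 and 0.29 for GC and −0.33 and −0.39 for length. These are descriptions across genes, which are not replicates. The 11 genes called higher had a median GC of 45.6% and the 17 called lower 44.6%.

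SRSF9, HNRNPAB and SON share exon sequence with a gene on the opposite strand whose median level was higher than their own over all libraries. These genes are GATC at 38.4 CPM, PHYKPL at 28.0 CPM and GART at 164 CPM. Across the 43 genes, 11 have such a partner at 1 CPM or more. The strand setting of the counting is not given in the sources used here, so reads of the pairs cannot be told apart.

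The lists of other splicing genes gave calls in both directions in NEE-sampled RNA. Of the 40 core spliceosome genes 12 rose and 18 fell. SF3B5, a small subunit of the same complex as SF3B1, rose by 2.61 ± 0.19 on the log2 scale (edgeR adjusted p = 1.38e-06), while PRPF8, the large U5 snRNP scaffold, fell by 2.24 ± 0.23 (edgeR adjusted p = 1.24e-05). Of 35 other regulators 7 rose and 20 fell, of 14 decay factors 3 rose and 9 fell, and of 9 SR protein kinases 2 rose and 5 fell, beside 22.5% higher and 26.0% lower over all genes tested. CLK1 and CLK4, kinases of SR proteins, were at −1.85 ± 0.24 and −2.26 ± 0.33, and CLK3 was at 0.63 ± 0.16. The list medians were −0.31 for the core, −1.0 for other regulators, −0.61 for decay factors and −0.61 for kinases, against −0.20 over all genes.

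The times after NEE were compared with before NEE to see whether these genes respond to the procedure. No splicing regulator passed the test at any time. This held for edgeR and DESeq2, for monolayers, spheroids and the mean of both, for 24 h against 2 h and for the 3 interactions of culture and time. Over all genes the share called by edgeR lay between 0.0% and 0.0561%, the top value being 24 h against 2 h. Without replicate 2 of the monolayers before NEE, which leaves as baseline the library that stood apart, 38, 48 and 102 of 17822 genes were called in monolayers right after NEE, at 2 h and at 24 h, and none of the 43. An unadjusted p under 0.05 was rare. In monolayers 1, 1 and 2 of the 43 genes had one right after NEE, at 2 h and at 24 h, beside 2.25%, 3.39% and 4.42% of all genes. In spheroids 0, 0 and 1 had one, beside 2.01%, 3.39% and 2.5%, and in the mean of both cultures 0, 1 and 0, beside 2.25%, 4.84% and 4.0%. For 24 h against 2 h it was 1, beside 4.63%, and for the interactions 0, 0 and 1, beside 2.9%, 3.11% and 3.52%. Adjusted over all genes, 0.00561% were called in monolayers at 2 h and 0.0112% in spheroids at 2 h. At 2 h, where 0.0337% of all genes were called in the mean of both cultures, the median log2 fold change was 0.06 over the 43 genes and −0.01 over all genes.

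The gene with the smallest p at 2 h was SRSF5, an SR protein gene also known as an insulin-induced gene of rat liver cells. In spheroids SRSF5 was at 187 and 197 CPM before NEE, 180 and 216 CPM right after, 244 and 244 CPM at 2 h and 220 and 213 CPM at 24 h. In monolayers it was at 182 and 176 CPM before NEE, 162 and 195 CPM right after, 223 and 248 CPM at 2 h and 195 and 206 CPM at 24 h. All 4 libraries at 2 h lay above all 4 before NEE, at 240 ± 11.1 CPM and 186 ± 9.11 CPM (SD, n = 4 each), but the log2 fold change of 0.37 ± 0.13 did not pass over all genes (edgeR unadjusted p = 0.0146 and adjusted p = 0.965). SRSF2, also chosen by its small p, was at 145 ± 27.5 CPM at 2 h and 88.6 ± 36.3 CPM before NEE (SD, n = 4 each). These libraries overlapped, and the log2 fold change was 0.71 ± 0.35 (edgeR adjusted p = 1.0).

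DDX5 was at 1740 and 2630 CPM in spheroids at 24 h and 2970 and 2850 CPM at 2 h, and in monolayers at 1770 and 2210 CPM at 24 h and 2440 and 2570 CPM at 2 h. Its log2 fold change between 24 h and 2 h over both cultures was −0.36 ± 0.15 (edgeR adjusted p = 1.0). HNRNPC was at 1480 and 1370 CPM in monolayers at 24 h and at 1060 and 747 CPM before NEE, a log2 fold change of 0.68 ± 0.26 (edgeR adjusted p = 1.0). HNRNPA2B1 in the same comparison was at 0.53 ± 0.23 (edgeR adjusted p = 1.0). U2AF1 had the largest drop in monolayers at 2 h, −2.97 ± 1.16 (edgeR adjusted p = 1.0), which rests on the 16.5 CPM of replicate 2 before NEE. The lists of kinases, core spliceosome, decay factors and other regulators had no called gene at any time.

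**Figure D5:**
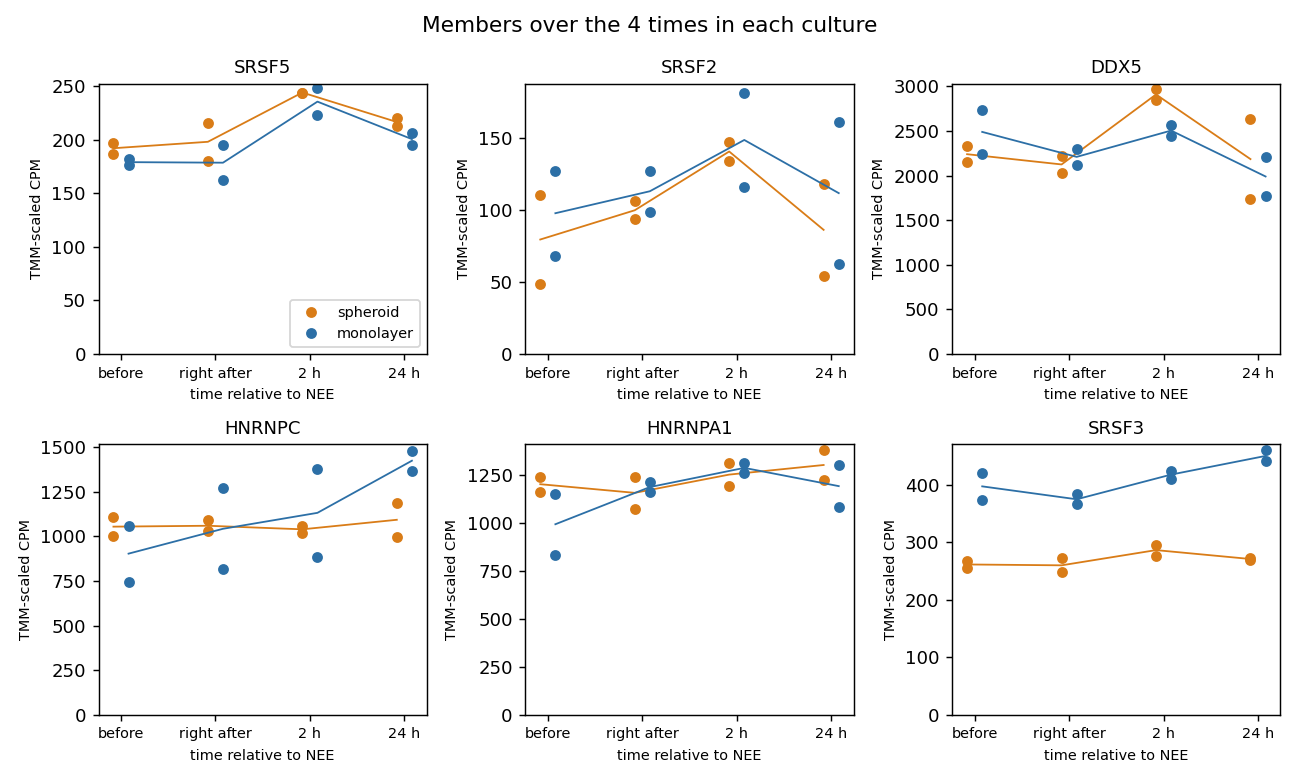
TMM-scaled CPM of 6 genes before NEE, right after, 2 h and 24 h after it, in spheroids and monolayers, 1 point per library with a line through the mean of the 2 libraries. SRSF5 is highest at 2 h in both cultures, without passing the test, and SRSF3 is lower in spheroids than in monolayers at every time.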

How the data were processed

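Each deposited file is a table of unnormalised read counts by gene. The submitters' processing notes name HISAT2, featureCounts, Trimmomatic, FastQC and the build GRCh38. Which annotation was counted, whether strand was used and how multiply mapped reads were treated is not given in the sources used here. Per the labels' protocols, RNA of lysates came from a kit for total RNA, NEE-sampled RNA was purified with a kit for small amounts, and libraries followed Smart-Seq2. All 62700 listed genes were used. Positions, gene types and exon lengths came from GENCODE 29 and promoter windows from RefSeq (GRCh38.p14).

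Differences were tested with edgeR 4.0.16 (TMM scaling, filterByExpr, robust quasi-likelihood F test, Benjamini-Hochberg adjustment over all genes tested, threshold 0.05). The fit of the 16 lysate libraries had 17822 genes and 8 residual degrees of freedom, and that of 3 NEE-sampled and 8 monolayer libraries 17067 genes and 6. TPM and TMM-scaled CPM were computed from the counts. Reads come from PCR without molecular identifiers. Alternatives were RLE scaling, no filter, a filter at 5 CPM in 2 libraries, DESeq2 1.42.0, the replicate number as a block, all 19 libraries in 1 fit, the NEE-sampled libraries summed, and leaving out each library. A library left alone in its group this way is taken to have the spread of the rest. The procedure was also run on simulated data with known changes, but the share recovered is not given here. In a library 3 counts are worth 0.122 to 0.22 CPM, and such floors cover counting error only.

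Named genes were up to 12 called genes by smallest p in a comparison, where fewer than 3 were called the 3 of each sign with the smallest p, the 5 highest, 5 lowest and 5 most variable by level, and up to 4 from each list. Other members were named to complete their class, after their values were seen. The members, lists and rules were chosen with earlier results of these data known. Replicate numbers equal the labels' batch tag, whose meaning is not stated. Deviations of same-numbered lysate libraries from their group means had correlations of −0.271 to 0.492 (median 0.21, 10022 genes), above 0.1 in 19 of 28 pairs. The block was used only as an alternative, and the main tests leave such shared deviations in the residual spread. This can make changes over time harder to call. In monolayers the 43 genes took 1.56, 1.50, 1.56 and 1.49% of counts in replicate 1, in order of time. In replicate 2 they took 1.27, 1.29, 1.36 and 1.45%. In spheroids neither replicate was higher at every time. The 11 pairs of libraries within a group differed beyond sampling noise (mean chi-square per gene 38.3 to 229), so none was a duplicate. Analyses used R 4.3.3, Python 3.11.15, pandas 2.3.3, numpy 2.4.6, scipy 1.17.1 and matplotlib 3.10.9.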

Additional observations from a re-analysis of the deposited data

How the results depend on the processing

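No gene called in the main comparisons changed direction in the alternatives run, while medians near 0 did. Between spheroids and monolayers the count of 20 was 19 to 20 under RLE scaling, no filter, the stricter filter, DESeq2, the replicate block and the fit of all 19 libraries, and 13 to 19 when 1 library was left out. With no filter HNRNPH3 and SRSF8 lost their calls and 1 other gene gained one. Before NEE alone the count of 0 became 3 with no filter, 2 with 5 CPM in 2 libraries, 1 with the replicate block, 4 with DESeq2, 1 with all 19 libraries and 0 to 2 without 1 library, and the median ran from −0.28 to 0.02. In NEE-sampled RNA the count of 28 became 22 with the replicate block and 19 with the 3 libraries summed, and the median of −0.23 became −0.09 with 5 CPM in 2 libraries and −0.12 when summed. Against monolayers before NEE the median of −0.28 became −0.18 with 5 CPM in 2 libraries, −0.18 with the replicate block, −0.11 when summed and −0.35 to −0.06 without 1 library. The cause was not tested. Without 1 library the medians of the time comparisons ran from −0.06 to 0.19 (monolayers, 2 h), −0.08 to 0.10 (monolayers, right after), −0.13 to 0.03 (spheroids, right after), −0.10 to 0.05 (interaction, 2 h) and −0.23 to 0.03 (interaction, right after). The block removed HNRNPA0 between cultures and the 6 genes named for NEE-sampled RNA, and 2 of 23 calls against monolayers before NEE. In the NEE-sampled comparisons the block cannot show whether a batch bears on the calls, since technical replicates were joined to cultures by number only. Counting depth limits SRSF12, U2AF1 and HNRNPUL2, the lowest genes. With 2 libraries a group, changes after NEE of the size of SRSF5 at 2 h did not reach the threshold.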
